A study of Cavia porcellus with 8 samples.

Results

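Arachidonic acid is oxidized along a shared route to prostaglandins and thromboxane and along a separate route to leukotrienes. These lipid mediators act on G protein-coupled receptors of nearby cells. The expression of 3 genes of these routes was followed in the guinea pig cochlea after insertion of an electrode. They were cyclooxygenase-2 (COX-2, feature Y07896), the prostaglandin E2 receptor PTGER4 (feature DQ489549) and the leukotriene B4 receptor LTB4R (features AB005049 and AF134488). The 4 features were chosen by accession from the 13269 features of the array.

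The study used male Hartley guinea pigs and a 1-color NimbleGen array of guinea pig transcripts, with 1 array per animal. In the normal electrode group (NOR, n = 3) a silicone dummy electrode was inserted into the cochlea, and in the dexamethasone-eluting electrode group (DEX, n = 3) a dummy electrode loaded with the glucocorticoid dexamethasone was inserted in the same way. The non-surgically treated control group (CNT, n = 2) had neither surgery nor electrode. The implanted cochleae were taken at day 7, and the age is given as 7 weeks in the design text and as 8 weeks in the sample labels. As no animal had surgery without an electrode, surgery and electrode cannot be told apart. RNA came from the whole cochlea, in which fewer cells of a type and less RNA per cell cannot be told apart. Markers of cochlear cells were not analysed here, because features carry accessions and few could be paired with gene names.

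COX-2 is the inducible enzyme that turns arachidonic acid into the prostaglandin precursor, and glucocorticoids are known to repress its gene. PTGER4 raises cyclic AMP in response to prostaglandin E2 and is found on many immune cells. LTB4R is the high-affinity receptor through which leukotriene B4 attracts neutrophils. Thromboxane synthase (TBXAS1), known from platelets and macrophages, converts the same prostaglandin precursor to thromboxane, and prostaglandin reductase 1 (PTGR1) inactivates leukotriene B4 and prostaglandins.

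The 8 arrays fell into 2 sets that the labels do not name. Arrays of a set had 246 to 384 signal values in common, and arrays of different sets 30 to 52. Array set A held NOR 1, NOR 2, DEX 1 and DEX 2, and array set B held NOR 3, DEX 3 and both controls. Quartiles and medians differed between arrays by up to 0.39 on the log2 scale, and within the sets by up to 0.04 and 0.08. Signals were therefore quantile-normalized, and normalized linear signals in arbitrary units are given unless stated otherwise. Because all controls lay in array set B, the comparisons are also given within that set and from a model that holds the array set as a term. Within array set B a comparison rests on 1 animal of each implanted group, and its spread is borrowed from the other groups.

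COX-2 was measured close to the lower end of the signals. It was 18.1, 18.6 and 14.0 in NOR 1 to 3, 13.0, 22.6 and 8.73 in DEX 1 to 3, and 7.66 and 6.57 in CNT 1 and 2. All 6 implanted animals lay above both controls, and the DEX animals lay on both sides of the NOR range. In the controls 0.882% and 1.64% of the features of the array were dimmer than COX-2, and in the NOR animals between 9.56% and 15.2%. The deposited signals before normalization were as low, with 7.07 and 6.50 in the controls and 13.9 to 17.8 in the NOR animals. The values carry no background or detection measure, so it cannot be given whether COX-2 in the controls stood above background.

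The group means for COX-2 were 16.9 ± 2.54 in NOR (SD, n = 3), 14.8 ± 7.13 in DEX (SD, n = 3) and 7.12 ± 0.777 in CNT (SD, n = 2). In NOR against CNT the log2 difference was 1.24 (SE 0.35, 95% interval 0.43 to 2.05), a 2.36-fold ratio of geometric means, with an adjusted p of 0.0683 by limma. DEX against CNT gave a log2 difference of 0.95 (SE 0.35, adjusted p = 0.148 by limma), which was 0.59 without DEX 2. With the replicate block, which compares animals of the same replicate number, both passed the threshold of an adjusted p under 0.05. The log2 differences were then 1.47 (adjusted p = 0.0190) and 1.18 (adjusted p = 0.0347) by limma. Both controls carry replicate numbers of array set A animals but lie in array set B. With the array set as a term instead, the differences were 0.78 (adjusted p = 0.0905) and 0.49 (adjusted p = 0.270) by limma, and neither was called. Within array set B, NOR 3 lay 0.98 above the controls on the log2 scale and DEX 3 lay 0.30 above them. With 20 added to every signal, NOR against CNT was 0.44 and DEX against CNT 0.34 in COX-2. The added 20 exceeds each COX-2 group mean and shrinks such ratios by arithmetic.

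DEX and NOR were not separated in COX-2. The log2 difference of DEX from NOR was -0.29 (SE 0.31, 95% interval -1.01 to 0.44, adjusted p = 1 by limma). DEX 2 had the highest COX-2 signal of all 8 animals, 3.19-fold above the geometric control mean, and DEX 3 had the lowest among the implanted animals, at 1.23-fold. Without DEX 3 the DEX minus NOR difference was 0.037, and without DEX 2 it was -0.66, with no call in either case.

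**Figure D1:**
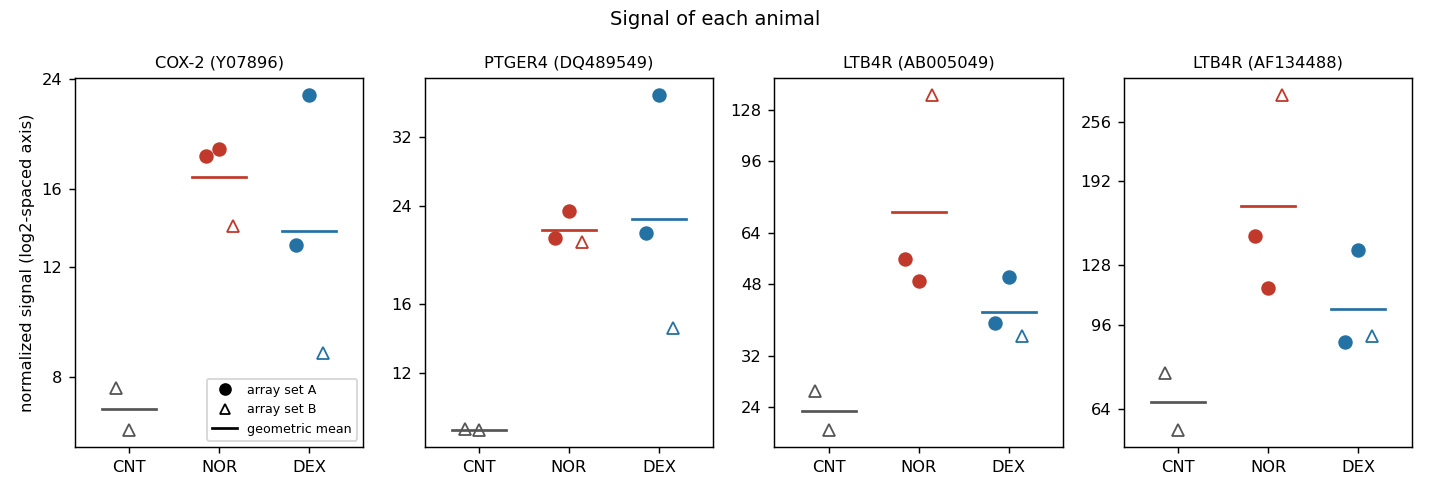
Normalized signal of the 4 features in each animal (log2-spaced axis), with a panel for each feature, filled circles for array set A, open triangles for array set B and a bar at the geometric mean of each group. All 6 implanted animals lie above both controls in each panel, and the NOR and DEX animals overlap in each. Over the array, all NOR animals lay above both controls in 25.5% of features and all DEX animals in 25.4%.

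PTGER4 was also dim. Its signal was 21.02, 23.6 and 20.7 in NOR 1 to 3, 21.5, 38.1 and 14.5 in DEX 1 to 3, and 9.50 and 9.47 in CNT 1 and 2. The controls were nearly equal and lay below all 6 implanted animals, while the DEX animals spread wider than the NOR animals and included them. Between 3.39% and 3.43% of the features were dimmer in the controls, and between 17.3% and 20.01% in the NOR animals.

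The PTGER4 group means were 21.8 ± 1.57 in NOR (SD, n = 3), 24.7 ± 12.1 in DEX (SD, n = 3) and 9.48 ± 0.0223 in CNT (SD, n = 2). NOR lay 1.20 above CNT on the log2 scale (SE 0.34, 95% interval 0.41 to 1.98), a 2.29-fold ratio, with an adjusted p of 0.0684 by limma. DEX lay 1.27 above CNT (SE 0.34, adjusted p = 0.0714 by limma), a 2.40-fold ratio. Under the replicate block both differences passed the threshold, at 1.38 (adjusted p = 0.0240) and 1.45 (adjusted p = 0.0244) by limma. The array set as a term gave 0.83 (adjusted p = 0.107) and 0.90 (adjusted p = 0.101) by limma, with no call. Within array set B, PTGER4 in NOR 3 stood 1.13 above the controls and in DEX 3 0.61 above them. With 20 added to every signal, which shrinks ratios of low signals by arithmetic, the PTGER4 differences were 0.50 and 0.57.

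PTGER4 in DEX differed from NOR by 0.07 on the log2 scale (SE 0.30, 95% interval -0.63 to 0.77, adjusted p = 1 by limma). The interval reaches both a lower and a higher level in DEX. The sign depended on DEX 2, whose signal was 4.02-fold above the geometric control mean. Without this animal the difference was -0.30, and within array set B it was -0.52.

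Both LTB4R features ordered the animals alike, apart from DEX 1 and DEX 3, which changed places. AB005049 was 55.3, 48.9 and 139 in NOR 1 to 3, 38.6, 50.0 and 35.8 in DEX 1 to 3, and 26.2 and 21.1 in CNT 1 and 2. AF134488 was brighter, at 148, 115 and 291 in NOR 1 to 3, 88.38, 138 and 91.0 in DEX 1 to 3, and 76.2 and 57.8 in CNT 1 and 2. In both features NOR 3 was highest and the controls were lowest, and DEX 2 lay above NOR 2. NOR 3 reached 5.92-fold and 4.38-fold above the geometric control mean in AB005049 and AF134488, whereas NOR 2 lay 1.06 and 0.79 above it on the log2 scale.

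The means of AB005049 were 81.1 ± 50.4 in NOR (SD, n = 3), 41.5 ± 7.50 in DEX (SD, n = 3) and 23.7 ± 3.65 in CNT (SD, n = 2). For AF134488 they were 184 ± 93.6 in NOR (SD, n = 3), 106 ± 27.8 in DEX (SD, n = 3) and 67.0 ± 13.0 in CNT (SD, n = 2). NOR against CNT gave log2 differences of 1.62 (SE 0.41, 95% interval 0.66 to 2.57) in AB005049 and 1.36 (SE 0.38, 95% interval 0.48 to 2.24) in AF134488. By limma the adjusted p-values were 0.0521 and 0.0673. With the array set as a term both passed the threshold, at 1.99 (adjusted p = 0.0203) and 1.65 (adjusted p = 0.0317) by limma. Without NOR 3 the differences were 1.15 and 0.98, and within array set B, where NOR 3 is the NOR animal, they were 2.56 and 2.13.

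Against the controls the DEX group stood 0.80 (SE 0.41, 95% interval -0.15 to 1.76) higher in AB005049 and 0.64 (SE 0.38, 95% interval -0.24 to 1.52) higher in AF134488 on the log2 scale. Adjusted p-values were 0.272 and 0.337 by limma. With the array set as a term the differences were 1.18 and 0.94 (adjusted p = 0.103 and 0.163 by limma), and within array set B DEX 3 stood 0.61 and 0.46 above the controls. Without DEX 2 the difference in AF134488 was 0.43. DEX was below NOR by log2 differences of -0.82 (SE 0.37, 95% interval -1.67 to 0.04) and -0.72 (SE 0.34, 95% interval -1.51 to 0.07), with an adjusted p of 1 in both by limma. A 2-sided exact permutation test over the animals gave p = 0.2 for each of the features, where 0.1 is the smallest p that 3 against 3 animals allow. Of the animals left out in turn, NOR 3 moved the difference most, and without it the difference was -0.35 in AB005049 and -0.33 in AF134488.

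**Figure D2:**
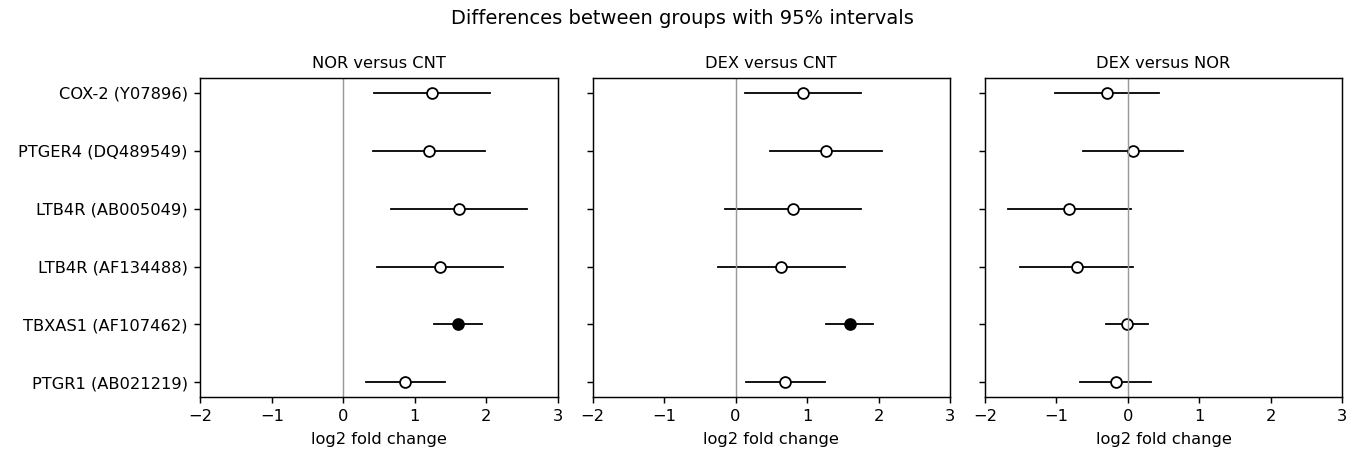
Log2 difference with its 95% interval from limma for the 4 features, TBXAS1 and PTGR1, in NOR against CNT, DEX against CNT and DEX against NOR. The intervals of the 4 features lie above 0 in NOR against CNT, and those in DEX against NOR all include 0.

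Because the electrode groups had animals in both array sets, DEX minus NOR could be taken within each. In LTB4R it was -0.24 in array set A and -1.96 in array set B for AB005049, and -0.24 and -1.68 for AF134488. The sets differed in it by 1.71 (SE 0.30) and 1.44 (SE 0.42) on the log2 scale, with adjusted p-values of 0.176 and 0.259 by limma. In COX-2 DEX minus NOR was -0.09 in set A and -0.68 in set B, and in PTGER4 it was 0.36 and -0.52, with adjusted p-values for the difference between sets of 0.696 and 0.503 by limma. Over the array this difference between sets passed an adjusted p under 0.05 in 0 of 13269 features, and 11.6% passed without adjustment. Array set B held only 1 animal of each electrode group, so that animal and set cannot be told apart there.

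**Figure D3:**
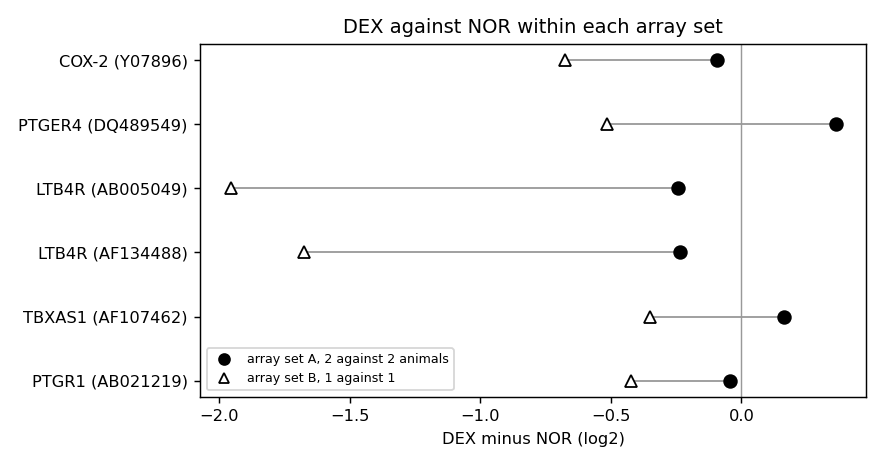
DEX minus NOR on the log2 scale within array set A (2 animals of each group) and within array set B (1 animal of each group). The LTB4R features lie at -0.24 in set A and at -1.96 and -1.68 in set B, and PTGER4 changes sign between the sets.

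The 4 features were then counted against the whole array. In NOR against CNT, 0 of the 4 passed an adjusted p under 0.05 by limma, where 4.04% of all features were called higher. All 4 had an unadjusted p under 0.05 and were higher in NOR, where this held for 14.6% of all features. All NOR animals lay above both controls in all 4, which 25.5% of all features also showed. Over the array limma called 1092 features in either direction, 95 without CNT 1, 101 without CNT 2 and 210 without NOR 2, and 2342 with the replicate block, where COX-2 and PTGER4 passed and the LTB4R features did not. With the array set as a term 2689 features were called, and here both LTB4R features passed and COX-2 and PTGER4 did not. The median log2 difference of the 4 was 1.30, and that of all features was 0.01. Between 0.573% and 1.18% of all features had a higher log2 difference than these 4. The methods' t-test on deposited linear signals, run here on each feature on its own, gave 2 of the 4 without adjustment, COX-2 and PTGER4, and 0 after Benjamini-Hochberg adjustment. The study's methods treat probes of a gene as 1 gene, so for LTB4R this is not the same test. All 4 features stand in a list that the study chose on this contrast in these arrays, so these counts are not independent evidence of a direction.

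In DEX against CNT, which shares its controls with the comparison before, 0 of the 4 passed the adjusted threshold by limma, where 2.47% of all features were called higher. COX-2 and PTGER4 had an unadjusted p under 0.05, against 13.0% of all features that were higher at this level. All DEX animals lay above both controls in all 4, as in 25.4% of all features. With the replicate block the calls over the array went from 650 to 1888, COX-2 and PTGER4 among them, and with the array set as a term to 1957, with 0 of the 4 among them. The median log2 difference of the 4 was 0.88, and that of all features was 0.0067. In DEX against NOR, 0 of the 4 passed with or without adjustment, by limma or by the methods' t-test, and limma called 0% of all features at an adjusted p under 0.05. Without adjustment 2.48% of all features passed, and in 5.45% the ranges of both electrode groups were apart, which was the case in 0 of the 4. The median of the 4 was -0.50, with PTGER4 as the only feature above 0.

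Among 28 genes listed for the prostaglandin and leukotriene routes, 5 could be matched to features, and these included COX-2, PTGER4 and LTB4R. The other 23 were not analysed here. TBXAS1 (feature AF107462) was 69.3, 70.8 and 87.9 in NOR 1 to 3, 78.9, 78.0 and 69.0 in DEX 1 to 3, and 23.51 and 26.3 in CNT 1 and 2. The implanted animals formed a narrow range well above the controls. TBXAS1 rose by 1.60 (SE 0.14, adjusted p = 0.00481 by limma) on the log2 scale in NOR against CNT and by 1.60 (SE 0.14, adjusted p = 0.00626 by limma) in DEX against CNT. DEX against NOR gave -0.0075 (SE 0.13, 95% interval -0.30 to 0.29). The array set as a term left both differences from the controls called, at 1.65 and 1.64. Within array set B, TBXAS1 was 1.82 above the controls in NOR 3 and 1.47 above them in DEX 3.

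PTGR1 (feature AB021219) was 710, 590.0 and 602.9 in NOR 1 to 3, 552, 714 and 449 in DEX 1 to 3, and 280.1 and 429 in CNT 1 and 2. The controls were the lowest animals, but CNT 2 came within a small distance of DEX 3. NOR lay 0.87 above CNT (SE 0.24, adjusted p = 0.0639 by limma) and DEX 0.70 above CNT (SE 0.24, adjusted p = 0.127 by limma). The replicate block moved NOR against CNT past the threshold, at 0.96 (adjusted p = 0.0324 by limma), while the array set as a term gave 0.67 (adjusted p = 0.0976 by limma), and 0.50 in DEX against CNT (adjusted p = 0.211 by limma). Without CNT 1 the PTGR1 differences from the controls were 0.56 and 0.39. Within array set B, PTGR1 in NOR 3 was 0.80 and in DEX 3 0.37 above the controls. Thus 1 of these 2 pathway genes was called in each comparison with the controls, where 4.04% and 2.47% of all features were called higher, and 0 of them in DEX against NOR, where 0% of all features were called. Both also stand in the list chosen by the study on NOR against CNT.

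Pooled over the groups, the spread among animals was wide in the 4 features, but it was not wide in each group. The log2 SD in NOR, DEX and CNT was 0.23, 0.69 and 0.16 for COX-2 and 0.10, 0.70 and 0.0034 for PTGER4. It was 0.82, 0.25 and 0.22 for AB005049 and 0.69, 0.36 and 0.28 for AF134488. The residual SD on the log2 scale was 0.47 for COX-2, 0.45 for PTGER4, 0.55 for AB005049 and 0.51 for AF134488, against a median of 0.19 over all features. Of all features, 94.1%, 93.4%, 96.6% and 95.6% had a lower SD. TBXAS1, with a log2 difference close to that of LTB4R in NOR against CNT, had an SD of 0.15. Dim features spread more in general. With the features divided by brightness into 5 equal classes, the median SD was 0.25, 0.27, 0.19, 0.15 and 0.11 from the dimmest to the brightest. COX-2 and PTGER4 lay in the dimmest class and both LTB4R features in the next, and each had an SD above its class median.

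**Figure D4:**
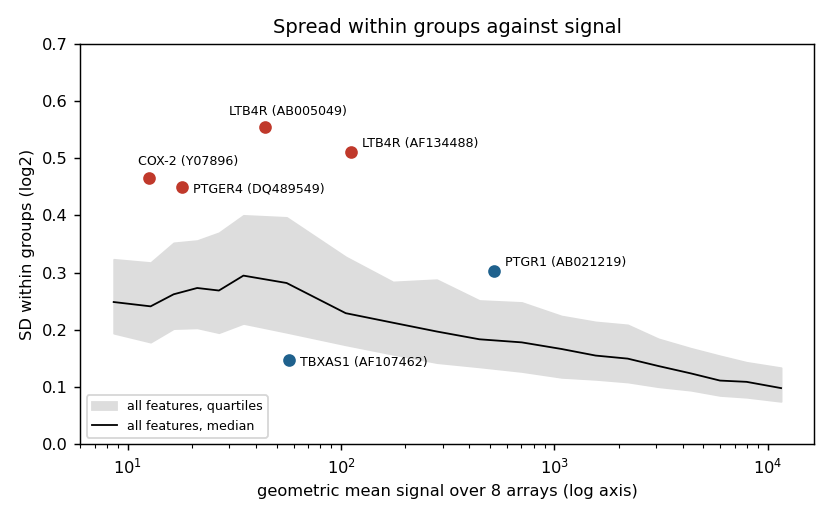
Residual SD pooled over the groups (log2) against the geometric mean normalized signal (log axis) for all features in bins of brightness and for the named genes. The 4 features lie between 0.45 and 0.55, above the median of features of like signal, and TBXAS1 lies at 0.15.

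The features differed in which animals were high. COX-2 and PTGER4 had a Pearson r of 0.952 over the 8 arrays, and AB005049 and AF134488 an r of 0.988. PTGER4 ranked 41 among the features most like COX-2, and COX-2 ranked 43 for PTGER4. PTGR1 had an r of 0.859 with COX-2 and 0.871 with PTGER4, and TBXAS1 an r of 0.766 and 0.845. Between COX-2 or PTGER4 and the LTB4R features r was 0.604 to 0.648. Each of the LTB4R features was the feature most like the other among 13268. Outside the 4, COX-2 was most like EL938337 (r = 0.988), PTGER4 most like EL942300 (r = 0.986), and both LTB4R features most like EL936216 (r = 0.983 and 0.987), features with no gene name in the tables used. The arrays share groups and array sets, so these values are a description.

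Genes of leukocytes were measured beside these features. Of 10 listed leukocyte genes 8 fitted a single feature, MHC class II, CD8-alpha, CD8-beta, CD18, CYBA and 3 Fc gamma receptors. The name CD18 is the study's symbol, but the study describes this gene as Mo1-alpha, so the identity of the feature is uncertain. In NOR against CNT 6 of 8 passed an adjusted p under 0.05 by limma, against 4.04% of all features called higher, CD18 and CYBA did not pass, and the median log2 difference was 1.35 (0.85 to 2.15). DEX against CNT gave 7 of 8, against 2.47% of all features, with a median of 1.18 (0.61 to 2.90), and CYBA did not pass. In DEX against NOR 0 of 8 passed with adjustment, against 0% of all features, and 2 without, against 2.48% of all features. In this comparison 4 were higher, and the median was -0.0059 (-0.45 to 0.76). Their summed signal was 9588 to 16671 in NOR, 12360 to 15138 in DEX and 4865 to 5053 in CNT. The other two, C3AR1 and GPR34, each fitted the mean of 1 pair of features, as LTB4R did, and are not in these counts. In NOR against CNT the C3AR1 features gave log2 differences of 0.77 and 1.01 and the GPR34 features 1.419 and 1.22, of which both GPR34 features passed an adjusted p under 0.05 by limma. This list too was chosen by the study on NOR against CNT, and its part in the levels of COX-2, PTGER4 and LTB4R was not tested.

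Animal by animal, the mean log2 difference of the 8 leukocyte genes from the controls was 1.36, 1.23 and 1.76 in NOR 1 to 3 and 1.67, 1.76 and 1.35 in DEX 1 to 3. NOR 3 was highest of the NOR animals in this mean and in LTB4R, but lowest of them in COX-2 at 0.98 and in PTGER4 at 1.13. DEX 2, highest in COX-2 and PTGER4, was highest of the DEX animals in this mean, in the Fc gamma receptors and in MHC class II. DEX 1 was highest of them in CD8-alpha, CD8-beta and CD18, and DEX 3 in CYBA. DEX 3 was lowest of the DEX animals in this mean, in COX-2 at 0.30, in PTGER4 at 0.61 and in AB005049 at 0.61, while DEX 1 was lowest in AF134488 at 0.41. AB005049 lay below the leukocyte mean in all implanted animals except NOR 3. In these animals it also lay below each Fc gamma receptor, but the other leukocyte genes lay on both sides of it. In NOR 1, AB005049 at 1.23 was above CD8-beta (0.93), CD18 (1.07) and CYBA (0.53) and below MHC class II (1.29) and CD8-alpha (1.35). In DEX 3, AB005049 at 0.61 was above CD18 (0.54) alone. The place of AB005049 against this mean thus depended on the genes in the mean. The other LTB4R feature, AF134488, lay below all 8 leukocyte genes in DEX 1, at 0.41 against 0.57 for CYBA, the lowest of them. It also lay below all 8 in DEX 3, at 0.46, and had leukocyte genes on both sides in the other implanted animals.

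**Figure D5:**
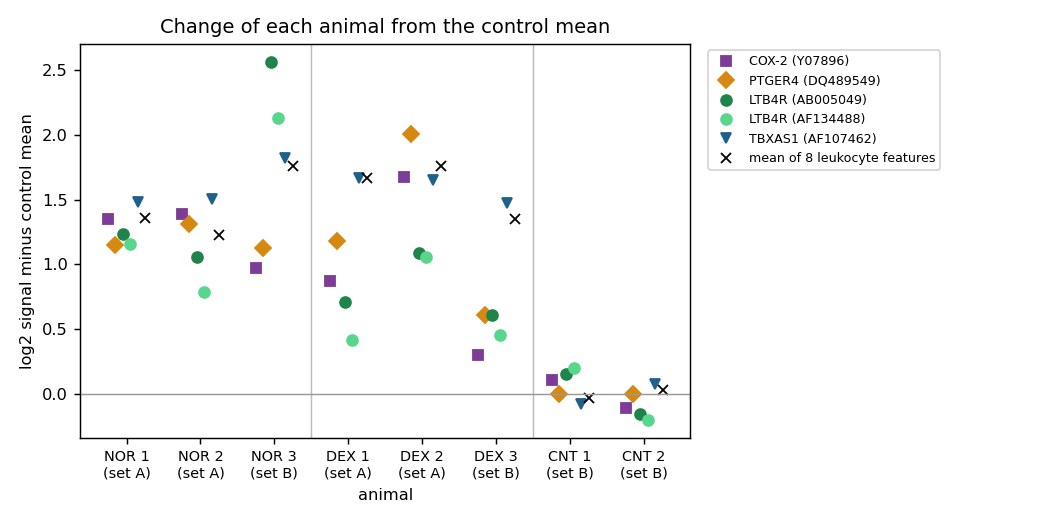
Log2 signal of each animal minus the control mean for the 4 features, TBXAS1 and the mean of 8 leukocyte features, with the array set under each animal. The LTB4R features are highest in NOR 3, COX-2 and PTGER4 are highest in DEX 2, and TBXAS1 stays between 1.47 and 1.82 in the implanted animals.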

How the data were processed

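Total RNA from the whole cochlea of 8 guinea pigs was hybridized to 1-color (Cy3) NimbleGen arrays. The arrays were read with an Agilent scanner and the company's Feature Extraction software, and the submitters' processing notes name RMA without its role. The values deposited by the authors are linear signal intensity, 1 value per feature and array over 13269 features, between 1.86 and 43479. A value pooled over probes hides their spread, and an unstated scaling between arrays can shift all signals of a set.

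Signals were quantile-normalized and log2-transformed, since quartiles or medians of the arrays differed by more than 0.05. A limma model with the 3 groups was fitted over the 8 arrays (R 4.3.3, limma 3.58.1, prior degrees of freedom 2.92), with Benjamini-Hochberg adjustment over all features and a threshold of 0.05 without a fold minimum. Folds are ratios of geometric means. For single features a 2-sided exact permutation test over animals was also run, which cannot give a p below 0.1 for 3 against 3 animals and 0.2 for 3 against 2. Precision is limited by having 2 or 3 arrays a group.

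The gene table matched 0 accessions. COX-2, PTGER4, TBXAS1, PTGR1 and the leukocyte genes were named because their 3 group averages, within 0.5%, fitted a single feature each (8 of 10 leukocyte genes). LTB4R fitted the mean of 1 pair among the 772 features whose accessions do not begin with EL or EB. The genes named were the 4 features, matched genes of the pathway list and the feature most like each. Members and lists were chosen with earlier results of these data known.

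Array sets were formed by joining arrays with at least 150 signal values in common. Residuals of NOR and DEX arrays of the same replicate number correlated at 0.221, 0.360 and 0.526, each over the 0.1 taken as a sign of pairing. Arrays with different numbers correlated at 0.205 and 0.328 within an array set, also over 0.1, and at -0.436 to -0.272 across sets. NOR 1 correlated better with DEX 2 than with DEX 1. This measure thus cannot tell pairing by replicate number from a shared array set. The labels state no pairing, and replicate number and array set cannot be told apart for replicate 3.

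Alternatives were signals as deposited, median centring, cyclic loess, the dimmest 25% of features left out, 20 added to each signal, the methods' t-test, a variance trend with robust variances, array weights, fits without the third group, the replicate block, the array set as a term or by set, and each animal left out. The fit was tested on simulated data of 13269 features, where 91.5% of 200 features changed by 2 on the log2 scale were recovered, with 11 false calls. Tables and figures were made in Python 3.11.15 with scipy 1.17.1, pandas 2.3.3, matplotlib 3.10.9 and numpy 2.4.6.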

Additional observations from a re-analysis of the deposited data

How the results depend on the processing

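Values are log2 differences, and calls are at an adjusted p under 0.05 by limma. In NOR against CNT the 4 features were close to the threshold, and over the alternatives fitted with limma the adjusted p was 0.00479 to 0.277 for COX-2, 0.00579 to 0.269 for PTGER4, 0.00116 to 0.238 for AB005049 and 0.00462 to 0.291 for AF134488. All 4 were called with signals as deposited (1.27, 1.16, 1.44 and 1.44 for COX-2, PTGER4, AB005049 and AF134488), among 1299 of 13269 features. Array weights also gave calls for all 4 (1.36, 1.27, 1.17 and 0.92), among 4017 features. Within array set B the differences were 0.98, 1.13, 2.56 and 2.13. There NOR 3 alone stands against the controls and is assumed to vary like the other groups, so no calls against the controls are listed for this set. With a variance trend and robust variances all 4 estimates stayed at 1.24, 1.20, 1.62 and 1.36, and all were called, among 1443 features. COX-2 and PTGER4 were also called in a fit of the compared groups (1.27 and 1.22), with the replicate block (1.47 and 1.38) and by the methods' t-test without adjustment (1.27 and 1.16). Over the array these gave 414, 2342 and 2944 features. With the array set as a term the LTB4R features were called (1.99 and 1.65), whereas COX-2 and PTGER4 were 0.78 and 0.83, not called. Adding 20 to every signal shrinks ratios of low signals by arithmetic. It brought COX-2 to 0.44 and PTGER4 to 0.50, and the LTB4R features to 1.11 and 1.15, with no call. AB005049 was called with the dimmest 25% of features left out (1.62), a filter that removed COX-2 and PTGER4. Leaving out each animal gave 1.11 to 1.36 for COX-2 and 1.15 to 1.24 for PTGER4, both called without DEX 2 or without DEX 3, and 1.15 to 1.87 for AB005049, called without NOR 3 (adjusted p = 0.0227). In DEX against CNT, array weights gave calls for COX-2 (0.92), PTGER4 (1.23) and AB005049 (0.75), among 4572 features against 650 in the main fit. The replicate block gave calls for COX-2 (1.18) and PTGER4 (1.45), among 1888 features. The variance trend gave a call for PTGER4 (1.27), among 1028 features. Leaving out each animal there gave 0.59 to 1.26 for COX-2 and 0.91 to 1.58 for PTGER4, both called without DEX 3 (adjusted p = 0.0496 and 0.0279), and 0.65 to 0.96 for AB005049, called without NOR 3 (adjusted p = 0.0366). AF134488 was called under 0 of 19 limma alternatives in DEX against CNT, with 0.43 to 0.85 over animals left out, and TBXAS1 under 19 of 19 in each comparison with the controls, though not by the methods' t-test after Benjamini-Hochberg adjustment (1.504 and 1.51). In DEX against CNT, COX-2 and PTGER4 were 0.49 and 0.90 with the array set as a term. With 20 added they were 0.34 and 0.57, and neither setting gave a call. Within array set B, where DEX 3 alone stands against the controls, they were 0.30 and 0.61. In DEX against NOR none of the 4 was called under any alternative, and the sign of LTB4R stayed below 0. COX-2 turned above 0 without DEX 3 (-0.66 to 0.037 over animals left out). PTGER4 turned below 0 with array weights (-0.042), within array set B (-0.52) and without DEX 2 (-0.30 to 0.40 over animals left out). TBXAS1, close to 0, turned sign with median centring (0.034), cyclic loess (0.012), the methods' t-test (0.0049), array weights (0.13), within array set A (0.16) and over animals left out (-0.068 to 0.10). The count of features called over the array by limma ranged from 95 to 4017 around 1092 in NOR against CNT, from 36 to 4572 around 650 in DEX against CNT and from 0 to 3 around 0 in DEX against NOR. Single animals moved these counts by over 1.5 times: NOR against CNT gave 95 without CNT 1, 101 without CNT 2, 463 without DEX 1 and 210 without NOR 2. DEX against CNT gave 36 without CNT 1, 56 without CNT 2, 75 without DEX 1, 94 without DEX 2, 242 without NOR 2 and 1302 without NOR 3. The methods' t-test gave 2944, 2544 and 207 features without adjustment and 7, 2 and 0 with it. Apart from these, the replicate block changed the call of PTGR1 alone, in NOR against CNT (0.96). PTGR1 was also called there with the dimmest 25% left out (0.87), 20 added (0.83), the variance trend (0.87), array weights (0.82) and the methods' t-test without adjustment (1.11), and in DEX against CNT with array weights (0.69). The cause of these changes was not tested.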
